A study of Mus musculus with 7 samples.

Results

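Open-chromatin regions lying deep in gene deserts and called in some but not all libraries were described here. Peaks of 7 ATAC-seq libraries on chromosomes 1 to 19 were merged where they overlapped by at least 1 bp, which gave 24734 regions. Of these, 11536 were called in 2 to 6 libraries, and 2889 of those lay more than 100 kb from the nearest protein-coding gene span. These 2889 are called desert regions below. They were chosen by their calls and by the distance, so neither is a finding. A further 416 regions beyond 100 kb were called in all 7 libraries and 2651 in 1 library, and they are outside the set.

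The libraries came from neural progenitors of CD-1 mice, taken at E14.5 from the embryonic dorsal telencephalon and sorted by flow cytometry for CD15. CD15 is a surface carbohydrate of neural stem and progenitor cells. There were 3 wild-type libraries, which the study's design calls control, and 4 libraries of the genotype L3mbtl3 -/-, called knockout here. L3mbtl3 encodes a chromatin protein with malignant brain tumour domains, and the study's title describes it as a partner of Polycomb repressive complex 1 (PRC1). No other allele, Cre or treatment is given for either group, and no source used here says whether a library is 1 embryo or a pool. The growth protocol also names heterozygous cells, and no library is labelled as such. The study asked what loss of this protein does in cortical progenitors.

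A gene desert is a long stretch of chromosome without protein-coding genes. Many deserts adjoin genes for developmental transcription factors, adhesion molecules or axon guidance receptors, and hold enhancers that act over long distances on one of the flanking genes. ATAC-seq reads such elements as sites where a transposase can insert adapters into open DNA. A peak does not tell which gene an element acts on, so the genes named below are neighbours only.

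The lists held 3366 to 17362 peaks, with the shortest and the longest both from knockout libraries (3 and 4). The files give no read counts, so depth is unknown. Within the span of L3mbtl3, wild-type library 1 and knockout library 4 each had 1 peak and the other libraries none, which does not check the allele. Of 20 radial glia and dorsal progenitor genes, 0 to 2 in wild-type and 1 to 4 in knockout libraries had a peak at a gene end, to within 1 kb. Pax6, Nes, Vim and Emx1 had none in any library. Thus the label of the cells could not be checked against most of their defining markers. None of the 10 endothelial, 10 microglia and blood or 10 astrocyte and oligodendrocyte genes had such a peak in any library. Ventral telencephalon genes reached 0 to 2 of 15 in wild-type and 1 to 3 of 15 in knockout libraries, with Gad2 and Gsx1 called in 4 libraries each. Cortical excitatory neuron genes reached 1 to 5 of 19 in wild-type and 2 to 6 of 19 in knockout libraries, the most of any list, with Fezf2 called in 6 libraries. Meninges and pericyte genes reached 0 of 10 in wild-type and 0 to 1 of 10 in knockout libraries. The part of these cells in the results below was not tested.

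The sequences shown first are promoter windows of annotated transcripts that desert regions overlap. Desert regions overlapped the promoter windows (250 bases before to 50 after the start, RefSeq GRCm38.p6) of 39 genes, all of them long noncoding RNAs (lncRNAs). Of these genes, 4 had a window in a region called in 6 libraries, and their windows are printed 5′ to 3′ on the strand of the gene, with bases inside the desert region in capitals. They were chosen after their values were seen.
Gm30063, + strand, chr3:39460530-39460829: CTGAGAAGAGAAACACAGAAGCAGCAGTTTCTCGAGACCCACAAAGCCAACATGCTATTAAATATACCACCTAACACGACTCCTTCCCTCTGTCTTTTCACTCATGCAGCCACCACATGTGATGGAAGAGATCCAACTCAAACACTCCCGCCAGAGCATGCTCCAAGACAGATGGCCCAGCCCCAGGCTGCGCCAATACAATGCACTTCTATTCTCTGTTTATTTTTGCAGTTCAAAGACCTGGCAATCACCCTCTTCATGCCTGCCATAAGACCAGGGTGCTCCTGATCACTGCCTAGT
Gm33277, − strand, chr11:34941678-34941977: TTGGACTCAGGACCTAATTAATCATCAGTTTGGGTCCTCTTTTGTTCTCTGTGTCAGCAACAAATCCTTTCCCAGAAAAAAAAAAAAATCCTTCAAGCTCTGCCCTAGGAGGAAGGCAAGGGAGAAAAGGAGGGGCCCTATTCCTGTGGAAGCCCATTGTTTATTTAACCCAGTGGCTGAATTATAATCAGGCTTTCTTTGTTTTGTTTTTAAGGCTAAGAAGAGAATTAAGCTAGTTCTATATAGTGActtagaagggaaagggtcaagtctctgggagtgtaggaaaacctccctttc
Gm52725, + strand, chr4:28143104-28143403: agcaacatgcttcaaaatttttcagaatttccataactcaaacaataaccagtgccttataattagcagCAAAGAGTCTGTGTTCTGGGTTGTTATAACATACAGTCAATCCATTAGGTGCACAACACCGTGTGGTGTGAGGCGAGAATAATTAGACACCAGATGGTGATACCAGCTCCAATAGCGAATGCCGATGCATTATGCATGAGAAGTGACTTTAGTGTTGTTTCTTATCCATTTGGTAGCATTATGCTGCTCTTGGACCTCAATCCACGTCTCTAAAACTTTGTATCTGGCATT
Gm34385, + strand, chr13:28295495-28295794: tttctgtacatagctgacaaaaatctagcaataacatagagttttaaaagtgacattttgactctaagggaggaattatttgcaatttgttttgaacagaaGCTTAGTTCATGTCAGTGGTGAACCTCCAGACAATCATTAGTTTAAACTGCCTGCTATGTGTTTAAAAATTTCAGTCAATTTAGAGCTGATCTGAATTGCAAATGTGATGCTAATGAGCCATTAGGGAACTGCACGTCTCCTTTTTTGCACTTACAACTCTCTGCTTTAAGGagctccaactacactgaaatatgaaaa

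All 300 bases of the Gm30063 window lay inside its desert region, chr3:39460522-39460972, between Fat4, an atypical cadherin, and Intu, a planar polarity effector. The region was 449 kb from a coding gene. Its fold enrichment, the authors' ratio of signal to background for each peak, was 5.83, 7.12 and 4.50 in the wild-type libraries and 6.83, 4.65 and 4.83 in knockout libraries 1, 2 and 4. The groups' values overlapped, and knockout library 3 had no peak. The Gm33277 window shared 249 bases with a region 108 kb from a coding gene, between Spdl1 and Slit3, a secreted axon guidance ligand. That region lacked a peak only in wild-type library 3. The Gm52725 window shared 231 bases with a region 670 kb from a coding gene, between Manea and the ephrin receptor gene Epha7. Its fold enrichment was 4.34, 6.65 and 6.02 in wild-type libraries and 7.005, 7.91 and 5.98 in knockout libraries 1, 2 and 4. The Gm34385 window shared 172 bases with a region 144 kb from a coding gene, between Prl5a1 and Sox4, which encodes a transcription factor of early neurons. It too was called in every library but knockout library 3.

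Short motifs were counted on both strands over the whole window, bases outside the region included. For each of the 39 genes the 1 window sharing most bases with a region was used, while the comparison sets kept every window of a gene. The homeodomain core TAATTA was in 10 of 39 windows, which is 25.6%, against 6.67% of 11311 lncRNA windows and 5.27% of 31396 windows of all genes. The Sox-type core ACAAAG was in 15 of 39, or 38.5%, against 22.2% of lncRNA windows and 18.6% of all windows. The octamer ATGCAAAT, bound by POU factors, was in 3 of 39 against 1.87% of lncRNA windows. The general E-box CANNTG, to which basic helix-loop-helix (bHLH) factors bind, was in 82.1% against 78.3%. Its subtypes CAGATG, at 23.1% against 21.9%, and CAGCTG, at 17.9% against 17.6%, both overlap CANNTG by their letters. These shares are descriptions of 39 windows, and the base composition of the windows was not matched. In the windows of E130101E03Rik and Gm32810 TAATTA occurs only outside the region. In the Gm33277 window TAATTA starts at base 15, inside the region. In the Gm52725 window it occurs at base 60, outside the region, and at base 149, inside it.

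Annotated lncRNA spans overlapped 465 of the 2889 desert regions, or 16.1%, while such spans covered 10.8% of the desert sequence lying beyond 100 kb. Pseudogenes overlapped 12 desert regions, or 0.415%, against 0.932% of that sequence. Noncoding genes did not bound a desert under the rule.

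The only microRNA hairpins overlapped by regions beyond 100 kb were those of the Mir344 family, in the desert between Gm51483 and Ndn on chromosome 7. MicroRNAs pair with target RNAs mainly through the seed, bases 2 to 8 of the mature strand. Of 919 hairpins in the RefSeq table, 100 lay beyond 100 kb from a coding gene, and 6 of those overlapped a region of any kind, all of them Mir344. The family has 13 hairpins, spread over 402 kb. The mature strands of the hairpins over regions are printed 5′ to 3′ with the seed in capitals, because they show how alike the copies are.
miR-344-5p (Mir344 and Mir344-2): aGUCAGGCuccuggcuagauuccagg
miR-344c-5p: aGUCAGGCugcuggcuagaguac
miR-344g-5p: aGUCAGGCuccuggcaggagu
miR-344f-5p: aGUCAGUCuccuggcuggaguc
miR-344i: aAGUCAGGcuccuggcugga
miR-344-3p (Mir344 and Mir344-2): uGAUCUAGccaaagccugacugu
miR-344c-3p: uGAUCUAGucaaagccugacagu
miR-344g-3p: cAGGCUCUagccaggggcuuga
miR-344f-3p: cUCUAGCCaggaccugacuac

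The 5′ strands of Mir344, Mir344-2, Mir344c and Mir344g share the seed GUCAGGC, and the 3′ strands of Mir344, Mir344-2 and Mir344c share GAUCUAG. When the 6 hairpins were aligned in pairs, identical bases made up 55.8% to 85.9% of the longer hairpin. The median was 68.8% over 15 pairs. The annotated hairpins are 68 to 95 bases long, and bases present only in the longer one count as not identical. These values therefore understate how alike the aligned parts are. How reads matching more than 1 copy were assigned is not given in the sources used here, so calls at single copies are uncertain. The region at Mir344 was called in all 7 libraries and is not a desert region under the rule. The other 5 are desert regions.

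Mir344c lay whole in a region of 436 bases, chr7:61837301-61837736, which extended 334 bases upstream of the hairpin and 10 bases downstream. Its fold enrichment was 6.99 and 5.53 in wild-type libraries 2 and 3 and 6.39, 5.46, 3.86 and 5.15 in the knockout libraries. Wild-type library 1 had no peak there, and the groups' values overlapped. Mir344-2 had 58 bases in a region called in every library but wild-type library 3, with fold enrichments of 5.82 and 6.04 in wild-type and 5.32, 6.23, 6.42 and 5.94 in knockout libraries. Mir344i was at a region called in 5 libraries, Mir344g in 4 and Mir344f in 2. The regions reached 103 to 334 bases upstream of these 5 hairpins and at most 10 bases downstream. The 7 other hairpins, Mir344d-1 to Mir344b, lie together at the Gm51483 side and overlapped no region in any library.

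Libraries differed widely in how many of the 2889 desert regions they called (plot of calls per library). Wild-type libraries 1 to 3 called 1353, 2086 and 950. Knockout libraries 1 to 4 called 1958, 1526, 355 and 2134. Knockout library 3 was the lowest of all and knockout library 4 the highest, so the groups overlapped over the whole wild-type range. The means were 1463 ± 576 (SD, n = 3) and 1493 ± 801 (SD, n = 4), a difference of 30.2 that was far inside the spread (exact permutation test, two-sided, p = 0.886, adjusted p = 1 over 3 comparisons). Such p-values measure only the spread between these libraries, as nothing says that they came from separate embryos. With 3 against 4 libraries the smallest p is 0.0286. Without knockout library 3 the difference was 399.7 regions (exact permutation p = 0.3), in a test with too few splits to reach 0.05. With each list shortened to its 3366 strongest peaks, wild-type libraries called 643, 637 and 507 desert regions and knockout libraries 719, 706, 444 and 437. Knockout library 4 was then the lowest, and the libraries lay closer together.

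**Figure D1:**
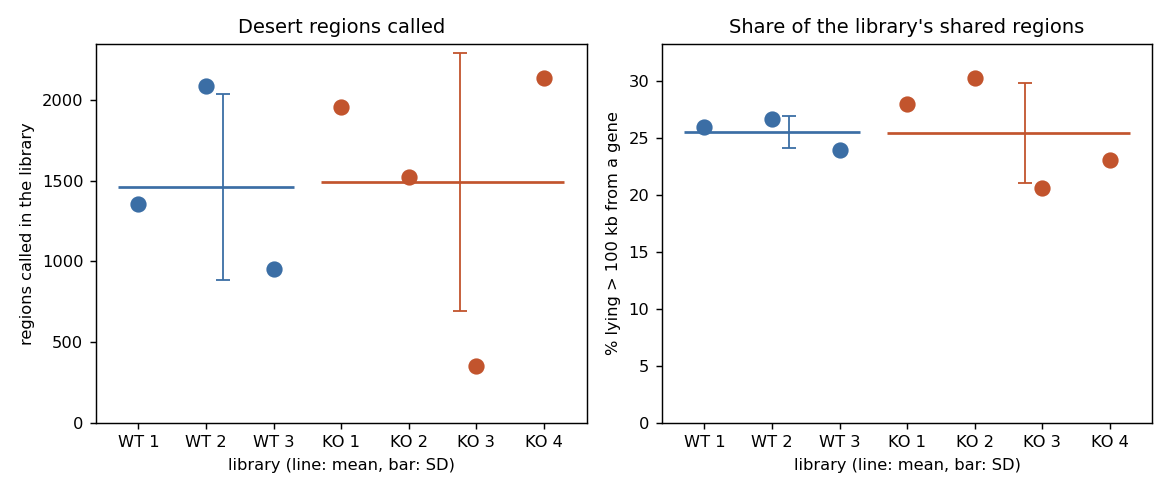
Desert regions called in each library (left) and their share of the library's regions called in 2 to 6 libraries (right, %). WT is wild-type and KO is knockout; points are libraries, lines are group means and bars are SD. Knockout library 3 lies lowest in both panels, at 355 regions and 20.6%.

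Measured as a share of each library's own shared regions, desert regions made up 25.9%, 26.7% and 23.98% in wild-type libraries 1 to 3. The shares were 28.0%, 30.2%, 20.6% and 23.0% in knockout libraries 1 to 4. Knockout values fell on both sides of all wild-type values. The means were 25.5% ± 1.38 (SD, n = 3) and 25.5% ± 4.41 (SD, n = 4), which differed by -0.0578 points, knockout minus wild-type (exact permutation test, p = 1). Over all peaks of a library, those beyond 100 kb were 27.0%, 27.6% and 26.0% in wild-type and 29.3%, 30.8%, 25.2% and 21.6% in knockout libraries, again without a difference in mean beyond the spread (exact permutation p = 0.971, adjusted p = 1). With the shortened lists, the share of shared regions in deserts was 25.3% to 28.9% in wild-type libraries. In knockout libraries 1 to 4 it was 32.2%, 31.7%, 24.9% and 21.2%. Knockout libraries 1 and 2 were highest at either list length, while the lowest was knockout library 3 with the full lists and knockout library 4 with equal ones.

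The number of libraries calling a region went with its place in the genome, as a description of the values that chose the set. The share of regions beyond 100 kb was 22.2% among those called in 1 library. It was 23.0%, 24.6%, 25.4%, 26.0% and 29.9% for 2 to 6 libraries and 32.8% for all 7. Desert regions called in 2, 3, 4, 5 and 6 libraries numbered 940, 615, 476, 415 and 443. Their median length was 200 bp at 2 callers and 363 bp at 6. Merged regions widen as more peaks are joined, so length rises with callers in part by construction. Of the 2889, 2769 (95.8%) had a stretch of bases covered by the peaks of all their calling libraries. Of the 443 called in 6 libraries, 304 (68.6%) lacked a peak in knockout library 3, the shortest list, and 99 (22.3%) in wild-type library 3. The corresponding shares were 61.3% and 18.9% of the 1041 other regions called in 6.

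The grid of wild-type and knockout callers shows how calls spread over the genotypes. Desert regions called by all wild-type and 3 knockout libraries made up 11.0%, against 8.79% of the 8647 other shared regions. Those called by 1 of each made up 19.8% against 22.9%. The share of desert regions called by both libraries of a pair, among those called by either, was 28.2% to 43.6% within wild-type and 12.1% to 54.5% within knockout. Between genotypes it ran from 5.50% to 56.7%. By number, wild-type library 2 and knockout library 4 shared the most desert regions, 1527, and wild-type library 3 and knockout library 3 the fewest, 68.

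**Figure D2:**
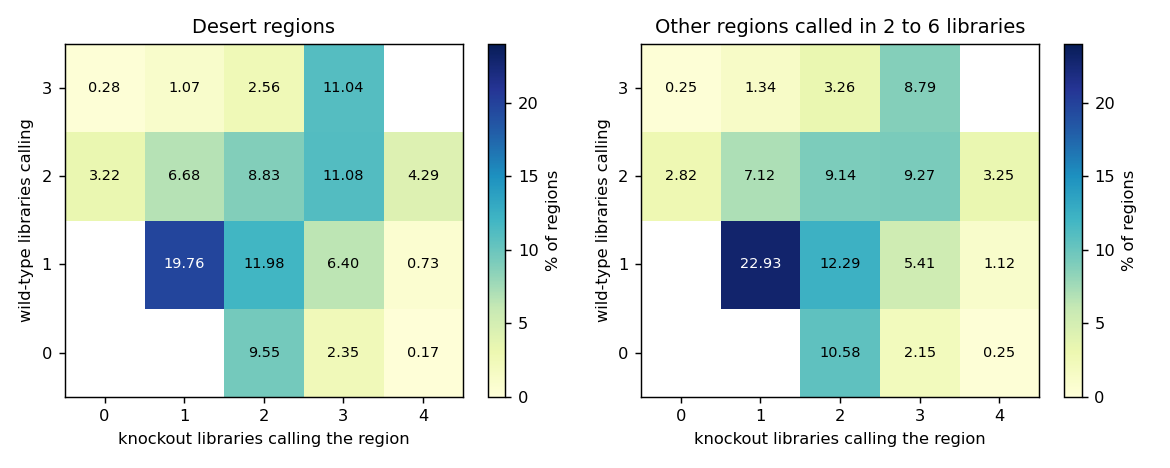
Percent of desert regions (left) and of the other regions called in 2 to 6 libraries (right) by the number of wild-type (vertical axis) and knockout libraries (horizontal axis) calling them. White cells cannot occur under the rule. Both grids hold most regions at 1 of each genotype, 19.8% and 22.9%.

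Few desert regions separated the genotypes. Called in every wild-type and no knockout library were 8, or 0.277% of desert regions, beside a background of 0.26% over all 11536 shared regions. Called in every knockout and no wild-type library were 5, or 0.173%, beside 0.234%. Among regions called in exactly 3 libraries, 1.301% of desert regions were wild-type only against 1.2% of all. Among those called in exactly 4, 1.05% were knockout only against 1.44%. All these shares are near their backgrounds. Fisher's exact test gives p = 0.0286 to each such region, its smallest value here. It gave an unadjusted p under 0.05 to 57 of the 11536 regions, and 0 passed the Benjamini-Hochberg adjustment. With this smallest p over so many regions no region could pass, so the 0 carries no information on genotype. Without knockout library 3 the wild-type count was 8 of 2538, or 0.315% against 0.32%. The knockout count was then 57, or 2.25% against a background of 1.95%.

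The 8 regions of the wild-type direction lay in 8 different deserts, with fold enrichments of 3.46 to 5.69. The one with the highest mean rank of −log10 q was chr4:74801904-74802047, 396 kb from Kdm4c, a histone demethylase gene, with fold enrichments of 5.42, 4.26 and 4.33 in the 3 wild-type libraries. The next, chr12:67618390-67618542, lay 396 kb from Mdga2, a synaptic adhesion gene, with 4.64, 5.69 and 4.36. A region between the cadherin genes Cdh8 and Cdh11, chr8:100561873-100562108, was 1144 kb from a gene and had 5.20, 4.83 and 4.12. These values are near the median fold of desert peaks in the same libraries, 4.71, 4.78 and 4.36. The other 5 lay between Piezo2 and Txnl1, Stxbp6 and Nova1, Olfm3 and S1pr1, Gabra2 and Cox7b2, and Kctd1 and Aqp4. Their nearest genes were 107 to 500.1 kb away.

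The 5 regions of the knockout direction had fold enrichments of 3.62 to 7.32. The first, chr2:48441301-48441456, lay 373 kb from the activin receptor gene Acvr2a in the desert that begins at Zeb2, with 4.86, 4.79, 4.74 and 7.32 in knockout libraries 1 to 4. The second, chr3:78534540-78534743, lay between Fstl5 and Rapgef2 with 5.48, 5.098, 3.99 and 4.76. The third, chr8:53391474-53391644, lay 120 kb from Aga in the desert that begins at Tenm3, a teneurin adhesion gene, with 5.05, 5.24, 4.67 and 3.89. The remaining regions, between Usp25 and Cxadr and between Zpld1 and Nfkbiz, were 500 and 517 bp long.

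Among the desert regions called in 6 libraries, which by that number have callers of both genotypes, the 10 with the highest mean rank of fold within the lists were examined. Of these, 9 lacked a peak in knockout library 3 and 1 in wild-type library 3. First was chr1:102628207-102628545, 2138 kb from the nearest gene, between Cntnap5b, a contactin-associated protein gene, and Cdh20, a cadherin gene. Its fold enrichment was 10.2, 9.07 and 6.84 in wild-type and 5.41, 7.29 and 11.9 in knockout libraries 1, 2 and 4, so that the knockout values spanned the wild-type ones. It is also the second farthest of all desert regions from a gene. Others of the 10 lay between Slitrk6 and Slitrk5, 2 synaptic adhesion genes, between Kcnj3 and Nr4a2, and 210 kb from Isl1, a LIM-homeodomain gene. The Isl1 region, chr13:116087449-116088036, had 6.82, 5.67 and 5.77 in wild-type and 8.29, 7.21 and 6.21 in knockout libraries 1, 2 and 4. The farthest region of all, chr18:28077857-28078243, was 2187 kb from Pik3c3 and was called in 3 libraries.

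Distances from the nearest gene ran from 100.01 to 2187 kb with a median of 287 kb. More than 200 kb away were 1949 desert regions (67.5%), and more than 1000 kb away 208 (7.20%). Just inside the threshold lay regions at 100.01 kb from Cdh26, 100.12 kb from Kctd8 and 100.25 kb from Lhx8, and just outside it at 99.97 kb from Lyplal1, 99.92 kb from Cdh6 and 99.75 kb from Btg1. All 6 were called in 2 or 4 libraries.

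Peaks in desert regions were compared with peaks of the same library in other shared regions called by as many libraries. The mean percentile of fold within the list differed by 0.519, 1.07 and -1.41 points in wild-type libraries and by 1.995, 2.60, -2.26 and -5.76 points in knockout libraries 1 to 4. It was higher in 4 and lower in 3 libraries, with a mean difference of -0.463 ± 2.91 (SD, n = 7; exact sign-flip permutation p = 0.734, adjusted p = 0.734 over 2 comparisons). With peaks of −log10 q of at least 5 only, which left 413 desert regions, the difference was -7.09 points and passed the test (exact permutation p = 0.0156). Peaks in desert regions were wider by 13.1, 13.2 and 7.17 bp in wild-type and by 15.4, 17.5, 6.47 and 1.05 bp in knockout libraries. The mean difference was 10.6 ± 5.82 bp (SD, n = 7), on mean widths of 170 and 159 bp, and was positive in 7 of 7 libraries (exact sign-flip permutation p = 0.0156, the smallest possible, adjusted p = 0.0313). The difference missed the threshold without knockout library 3 (6.93 bp, exact permutation p = 0.125). It also missed it when noncoding genes bounded the deserts too (4.30 bp, exact permutation p = 0.25). It was larger, 35.5 bp, with −log10 q of at least 5, 28.4 bp with equal lists and 21.5 bp with peaks covering at least 50% of a region (exact permutation p = 0.0156 each). For fold and width alike, the libraries' differences come from the same merged regions, each called in 2 to 6 libraries. Their p-values therefore measure agreement between libraries and not the spread between regions.

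**Figure D3:**
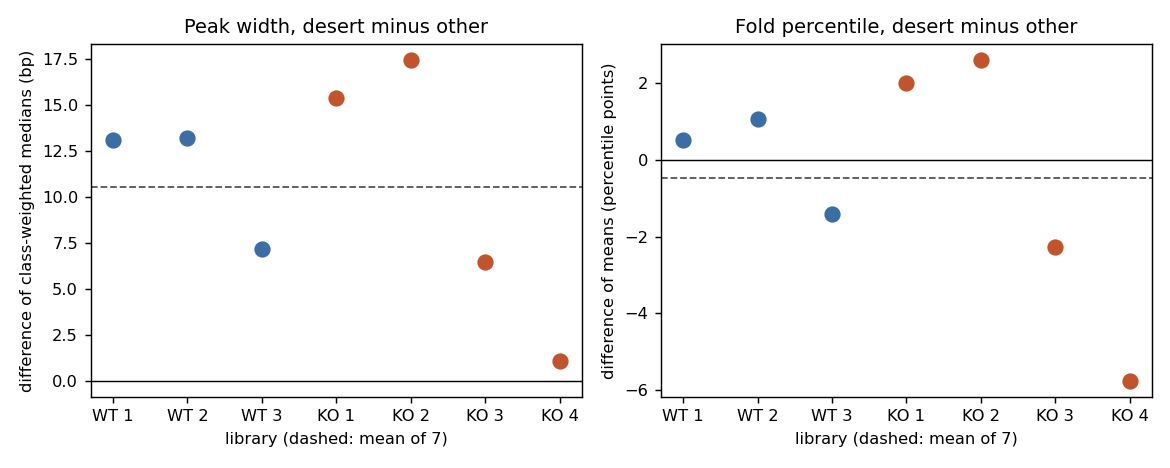
Difference between peaks in desert regions and in other shared regions with the same number of callers, per library, for peak width (left, bp; median in each class of callers, weighted by the desert regions in it) and fold percentile (right, percentile points). Blue points are wild-type and orange points knockout libraries. All 7 width differences are above 0, while fold differences run from -5.76 to 2.60.

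Desert regions were spread over many deserts, in uneven numbers. Of the 1376 gaps between neighbouring coding genes that are longer than 200 kb, 774 held at least 1 desert region, 238 held exactly 1 and 61 held 10 or more. The sequence beyond 100 kb from any gene totalled 654 Mb, or 27.3% of the span between the first and last genes, at 4.40 desert regions per Mb. The rest of the span held 4.96 other shared regions per Mb. The tenth of gaps with most regions (138) held 48.3% of desert regions on 36.7% of the length. These gaps were picked by that number, so some excess over their length is built in. Over the 1376 gaps, the number of regions went with the length beyond 100 kb (Pearson's r = 0.800, Spearman's rho = 0.764), as a description of gaps that share the same 7 libraries. The 13 regions at chromosome ends with a gene on 1 side only are left out of these counts.

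**Figure D4:**
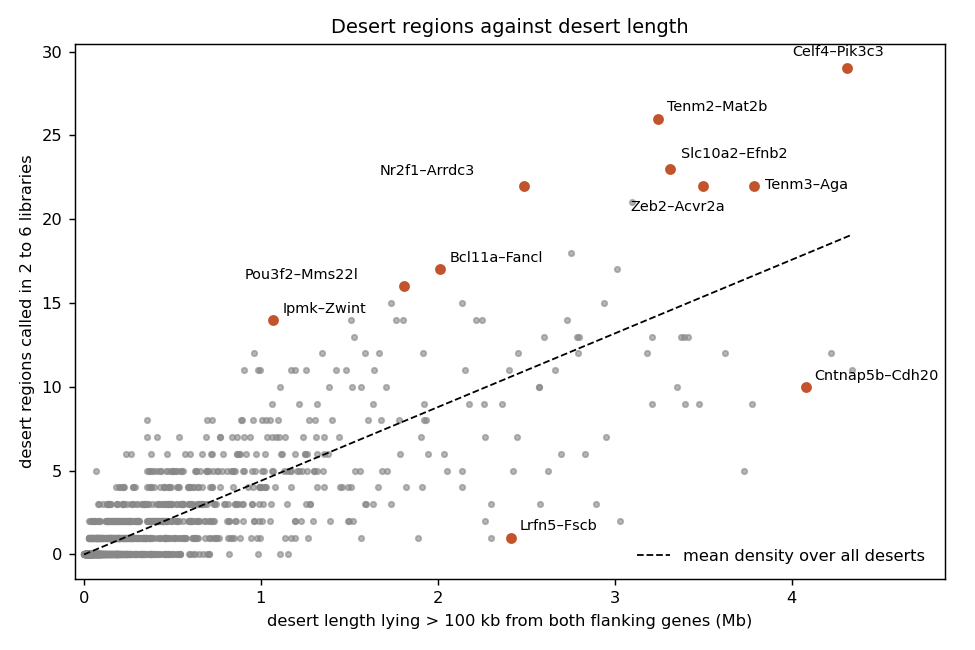
Desert regions in each of 1376 gaps (vertical axis) against the length of the gap beyond 100 kb from both flanking genes (horizontal axis, Mb); the dashed line is the mean density, 4.40 per Mb. Labelled gaps in orange include the 6 with most regions, 22 to 29 each, all above the line.

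Long deserts differed in density. Of the 185 with at least 1 Mb beyond 100 kb, the median held 4.06 desert regions per Mb and the densest, Ipmk to Zwint, 13.1 per Mb (14 regions). Second was Ptbp2 to Rwdd3 with 9.40 per Mb, next to Ptbp2, a splicing regulator of neurons. Nr2f1 to Arrdc3 and Pou3f2 to Mms22l, which adjoin genes of cortical transcription factors, had 8.85 per Mb each. At the other end, Lrfn5 to Fscb held 1 desert region in 2.41 Mb, and Adam6a to Zfp386 held 1 in 2.301 Mb. Only genes annotated as protein-coding bound a gap, so a stretch such as Adam6a to Zfp386 may hold genes of other types. Mmut to Ptchd4 held none in 1.15 Mb, with 1 region called in a single library. Density by chromosome ran from 3.23 per Mb on chromosome 6 to 6.54 on chromosome 19.

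The largest group, 29 desert regions, lay in the 4.51 Mb between Celf4, an RNA-binding protein gene of neurons, and Pik3c3, a lipid kinase gene, on chromosome 18. Wild-type libraries called 14, 20 and 7 of them and knockout libraries 21, 18, 2 and 19. As shares of each library's desert regions these averaged 0.910% in wild-type and 0.926% in knockout libraries (exact permutation p = 0.943, adjusted p = 0.988 over 61 deserts). Its strongest region called in 6 libraries, chr18:25999230-25999546, lay 245 kb from Celf4. Fold enrichments there were 6.71, 6.48 and 7.28 in wild-type and 7.62, 5.83 and 6.88 in knockout libraries 1, 2 and 4.

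Tenm2 to Mat2b on chromosome 11 came second with 26. Tenm2 encodes a teneurin, a synaptic adhesion protein. Wild-type libraries called 12, 21 and 15, and knockout libraries 16, 11, 4 and 15. The mean shares were 1.16% and 0.842%, which did not pass the test (exact permutation p = 0.171, adjusted p = 0.909). Next came Slc10a2 to Efnb2 on chromosome 8, with 23 regions. Efnb2 encodes ephrin-B2, a guidance ligand. Libraries called 11, 16 and 9 in wild-type and 15, 16, 3 and 15 in knockout (exact permutation p = 0.971, adjusted p = 0.988). No desert region lay in the part of this gap nearest Slc10a2: the first began 913 kb from that gene.

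Nr2f1, a nuclear receptor that patterns cortical areas, flanks a gap of 2.68 Mb with 22 desert regions. Wild-type libraries called 10, 17 and 9 and knockout libraries 15, 9, 4 and 16 (exact permutation p = 0.8286, adjusted p = 0.987). Zeb2, a repressor with roles in cortical neuron fate and interneuron migration, flanks a gap of 3.70 Mb that ends at Acvr2a and also held 22, called as 9, 14 and 8 in wild-type and 17, 16, 3 and 17 in knockout libraries. Knockout libraries 1, 2 and 4 exceeded every wild-type library in number and knockout library 3 was below them all. As mean shares the Zeb2 gap had 0.726% and 0.890% (exact permutation p = 0.114, adjusted p = 0.909). Tenm3 to Aga held 22 too, called as 12, 14 and 6 and as 15, 16, 6 and 15 (exact permutation p = 0.314, adjusted p = 0.909). Over the 61 deserts with 10 or more regions, 0 passed the adjustment (percent called 0), 0 had an unadjusted p under 0.05, and the smallest adjusted p was 0.909. With so few libraries, a desert could pass the adjustment only if many others also had the smallest p.

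**Figure D5:**
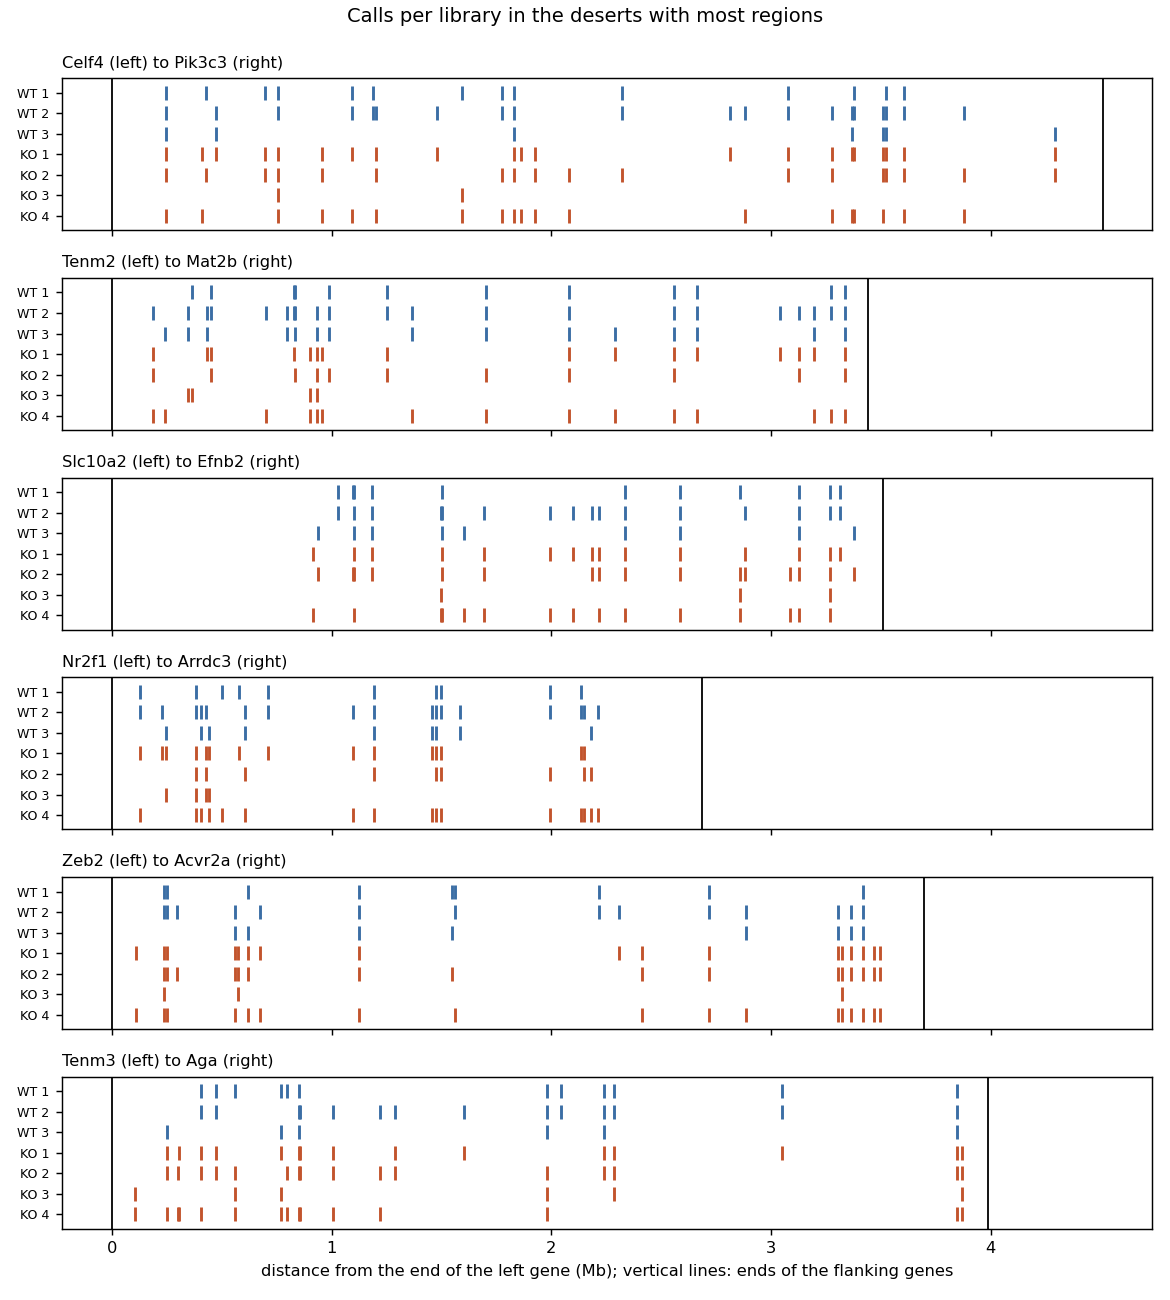
Calls in the 6 deserts with most regions; each tick is a desert region called in that library, blue for wild-type (WT) and orange for knockout (KO), and the horizontal axis is the distance from the left gene (Mb). Knockout library 3 has 2 to 6 ticks in every panel, and the other knockout libraries 9 to 21.

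Genes for developmental transcription factors flanked 523 of the 2876 desert regions lying between 2 genes, or 18.2% (95% Wilson interval 16.8% to 19.6%, counting error only). The gaps next to those genes made up 14.8% of the length beyond 100 kb, so their density was 5.39 per Mb against 4.40 over all gaps. The flanked share was nearer to that length share with peaks of −log10 q of at least 5 (15.3%) and with equal lists (15.8%). Of 388 listed genes on chromosomes 1 to 19, 171 adjoined a gap over 200 kb and 122 adjoined a desert region. Density was highest, 6.22 per Mb, for the list of nuclear receptors, T-box, NFI, Ebf, Ets and other factors (156 regions). It was 5.85 for bHLH and Id genes (42 regions), 5.59 for homeobox and paired-box genes (139), 5.31 for Sox and other HMG-box genes (45), 4.49 for forkhead genes (25) and 4.44 for zinc-finger factors (123). These are descriptions, since neighbouring regions are not independent and no test was run on the lists.

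The nuclear receptor group was led by Nr2f1 with 22 regions, the signal-responsive factor gene Ets1 with 13 and Etv1 with 12. Etv1, a marker of deep-layer cortical neurons, had 12.5 desert regions per Mb, called as 3, 9 and 4 in wild-type and 10, 9, 3 and 10 in knockout libraries. The homeobox group was led by Zeb2 with 22, Pou3f2 with 16 and Isl1 with 14. Pou3f2 is a POU factor of upper-layer neurons and progenitors. Its regions were called as 11, 13 and 5 in wild-type and 13, 9, 3 and 11 in knockout libraries, so the groups overlapped. Bcl11a, a zinc-finger factor of cortical projection neurons, had 17, called as 5, 15 and 5 and as 7, 6, 2 and 14. Wild-type library 2 and knockout library 4, which call most of the 2889, stood high there.

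Sox2, a factor that maintains neural progenitors, had 11 desert regions in its 2 adjoining gaps, at 8.66 per Mb. They were called as 3, 5 and 5 in wild-type and 5, 2, 2 and 11 in knockout libraries. Knockout library 4, which called the largest share of all desert regions (73.9%), called all 11. Of the 11, 1 overlapped the promoter window of the lncRNA Gm38512 and 1 that of Gm34599, each called in 5 libraries. Sox4 and Sox9, the latter a radial glia factor, had 6 each. In the bHLH group Myc had 18 and Mycn had 8. The Mycn regions all lay in the gap towards Cyria and were crowded, with 18.5 per Mb over both adjoining gaps. Those gaps hold only 0.433 Mb beyond 100 kb. Knockout library 4 called all 8 and wild-type library 3 called 1, beside 73.9% and 32.9% of all desert regions. Among signalling genes, Acvr2a had 22, Fstl5 had 11 and the Wnt receptor gene Fzd8 had 7. Signalling genes flanked 136 desert regions at 4.85 per Mb, and 41 of their 123 members adjoined one.

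Adhesion and guidance genes, whose transcription units and gaps are long, flanked many desert regions. The 3 adhesion and guidance lists together flanked 742, or 25.8%, on 27.1% of the length, at 4.18 per Mb against 4.40 over all gaps. Axon guidance genes had 5.35 per Mb (190 regions), cadherins and protocadherins 4.14 (249), and leucine-rich repeat and immunoglobulin adhesion genes 3.66 (326). By number, the leading members were Cdh8 with 32 desert regions on both its sides, Flrt2 with 27, Tenm2 with 26, Cdh9 and Pcdh17 with 24 each and Efnb2 with 23. In the same order they had 5.38, 5.61, 8.02, 4.69, 3.91 and 6.94 per Mb, so Pcdh17 was below the density over all gaps. Cdh8, a type II cadherin of cortical areas, had its regions called as 21, 25 and 12 in wild-type and 25, 24, 3 and 24 in knockout libraries. Epha7, an ephrin receptor gene of cortical progenitors, had 20 at 3.95 per Mb. Unc5d, a netrin receptor gene of migrating neurons, had 18 at 7.10 per Mb. Ion channel and neurotransmitter receptor genes were at 3.45 per Mb (115 regions). The glutamate receptor genes Grik2, with 14 at 3.70 per Mb, and Grm7, with 10 at 4.83 per Mb, led by number.

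Marker genes of cell types flanked few desert regions. Cortical excitatory neuron genes flanked 65 at 6.87 per Mb and radial glia and dorsal progenitor genes 63 at 6.48. Ventral telencephalon and interneuron genes flanked 18 at 9.59 per Mb on 1.88 Mb of sequence, of which Isl1 accounted for 14. Meninges and pericyte genes flanked 6 at 6.18 per Mb, endothelial genes 8 at 5.44, microglia and blood genes 6 at 5.27, and astrocyte and oligodendrocyte genes 2 at 9.31. Thus all 7 marker lists, neural or not, were above the 4.40 per Mb over all gaps. Predicted genes were at 3.62 per Mb (200 regions), and vomeronasal receptor genes flanked 0 desert regions on 0.725 Mb.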

How the data were processed

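ATAC-seq peaks were analysed in 3 wild-type and 4 knockout libraries. A separate broad-peak list was deposited for each library, with coordinates on GRCm38. For every peak the authors give a fold enrichment (a ratio over background), a −log10 p, a −log10 q and a score, and the last was not used. The submitters' processing notes name MACS2, Bowtie2 2.3.5.1, deepTools 3.3.0, SAMtools 1.9, FastQC 0.11.8 and CASAVA 1.9. No source used here gives their settings, how duplicate or multiply mapping reads were handled, or whether reads were shifted for the transposase. The lists hold no read counts, so depth is unknown and no counting interval can be set on a peak.

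Peaks on chromosomes 1 to 19 (60968) were merged on overlaps of at least 1 bp with Python 3.11.15, numpy 2.4.6 and pandas 2.3.3. Distances run to the nearest of 20560 protein-coding gene spans (RefSeq, GRCm38.p6). The gene table also lists 105 coding genes at positions under 3 Mb, before the first peak, which belong to other sequences and were left out. A desert is the gap between neighbouring spans, and its inner part lies beyond 100 kb from both. Fold and −log10 q were ranked within a list only. Raw fold enrichments printed for single regions come from lists of unequal length and unknown depth. They are descriptions, and no test compared them between genotypes. Coordinates are counted from 1.

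Genotypes were compared by exact permutation over 35 splits (scipy 1.17.1), peak properties by sign-flip permutation over 7 libraries, regions by Fisher's exact test, all two-sided, with Benjamini-Hochberg adjustment. Merging, distances and tests were tested on simulated data. The members and the gene lists (812 symbols in 18 lists, of which 799 lie on chromosomes 1 to 19) were chosen with earlier results of these data known. Named were the 6 deserts with most regions, up to 10 regions per direction called in 1 genotype only, the 10 with the highest mean fold percentile among those called in 6 libraries, up to 3 genes per list by regions in adjoining deserts, the 3 regions farthest from a gene and 3 on either side of 100 kb. Deserts named for density and the promoter windows and microRNAs were chosen after their values were seen. Alternatives were a stricter q, equal list lengths, other merging, coverage and distance rules, noncoding genes as bounds, each library left out and a block on the replicate number. The same replicate numbers occur in both genotypes. Correlations computed from the calls were 0.0228, 0.0309 and 0.0231 between same-numbered libraries. Wild-type library 1 was higher with knockout library 2 (0.0501) and wild-type library 3 with knockout library 4 (0.108). Only wild-type library 2 was highest with its own number, so the numbers were not taken as pairs. Sequence of the desert regions was used only where RefSeq promoter windows or microRNA hairpins overlap them, and some results under the naming rule are not reported here.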

Additional observations from a re-analysis of the deposited data

Results flagged for a closer look

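In 4 of the 6 deserts with most regions, knockout library 3 stood apart from the other knockout libraries by Dixon's test for 4 values. It called 2 desert regions in Celf4 to Pik3c3, where the others called 18 to 21, and 3 in Slc10a2 to Efnb2, where they called 15 or 16. It called 3 in Zeb2 to Acvr2a against 16 or 17, and 6 in Tenm3 to Aga against 15 or 16. Of all desert regions it called 355, against 1526 to 2134 in the other knockout libraries. As a share of each library's desert regions, its value was the lowest of the knockout libraries only in Celf4 to Pik3c3. It was the highest in Tenm3 to Aga and within the range of the others in Slc10a2 to Efnb2 and Zeb2 to Acvr2a. Chance flags about 1 in 20 groups. The same library has the shortest list, 3366 peaks, and the 4 flags are therefore not independent of each other. The part of the list length in these counts was not tested.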

How the results depend on the processing

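Peaks with −log10 q of at least 5 left 413 desert regions, with 0 wild-type-only and 1 knockout-only, 15.3% flanked by a transcription factor gene, genotype differences of 4.23 and 2.97 points in the shares of shared regions and of peaks, and a fold percentile difference of -7.09 (exact permutation p = 0.0156). Equal lists gave 1184 regions, 5 and 1 separated, 15.8% flanked and a difference of -19.2 regions per library. Noncoding genes as bounds gave 694 regions, 3 and 1 separated, 11.4% flanked, differences of 0.209 and 0.103 points, a fold percentile difference of 1.503 and a width difference of 4.30 bp (exact permutation p = 0.25). The fold percentile difference was 0.335 with peaks covering at least 50% of a region, 0.188 beyond 200 kb and 0.671 without matching on callers. Beyond 50 kb, 8 regions were knockout-only, and beyond 200 kb, 4 were wild-type-only. The separated counts under these settings have no share over all shared regions beside them, so they are not read as results about desert regions. The causes were not tested, apart from the smaller number of peaks or gaps that some settings leave by construction.

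Leaving out each library moved the difference in regions per library from -222 to 399.7, the 2 shares from -1.43 to 2.38 and from -1.51 to 1.58 points, the fold percentile from -0.694 to 0.0237 and the width from 6.93 to 11.6 bp. Wild-type-only regions ran from 8 to 50 (50, 21 and 47 without wild-type libraries 1, 2 and 3, and 18, 13, 8 and 24 without knockout libraries 1 to 4). Knockout-only regions ran from 6 to 57 (10, 20 and 6, and 8, 15, 57 and 8, in the same order). With a library left out, fewer libraries must meet the condition, so these counts can rise by construction. Apart from the setting without knockout library 3, no share over all shared regions stands beside them. They are thus not read as results about desert regions. Any further cause was not tested. No genotype difference passed its test under any of these settings (exact permutation p from 0.2 to 1). With a library left out, or with the 3 pairs below, too few splits remain for p under 0.05, so those tests could not pass. With the replicate number as a block (3 pairs), the differences were -183 regions, 0.752 and 1.58 points (exact permutation p = 1, 0.75 and 0.5).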
